A study of Mus musculus with 10 samples.

Results

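The enzymes that break glucose down to pyruvate and lactate, those of the pentose phosphate pathway, and a few genes known to be induced by low oxygen were followed in mouse splenic B cells sorted by whether they secreted IL-10, an anti-inflammatory cytokine. The set holds 34 genes. Members were taken as every probe of an Illumina MouseWG-6 beadchip whose listed gene name was a member's symbol or, for Pkm, its older symbol Pkm2. This gave 55 probes for 32 of the 34 genes, and Hk2 and Ldhb were not analysed here. At least 1 probe was detected on 2 or more arrays for 26 members, which were tested among 11185 genes.

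All cells were splenic B cells of C57BL/6 mice under a single treatment text, a stimulation lasting 5 h with the bacterial product LPS (10 µg/ml), the phorbol ester PMA (50 ng/ml) and the calcium ionophore ionomycin (500 ng/ml). They were separated with a cell isolation kit and an IL-10 secretion assay, then by flow sorting, into an IL-10+ fraction (5 arrays, replicates 1 to 5) and an IL-10- fraction (3 arrays, replicates 2, 3 and 5), beside total B cells (2 arrays, replicates 1 and 2). No unstimulated array was among them, that total B cells received the same stimulation rests on this common text, and the age and sex of the mice are not given. Slide 1 carried IL-10+ replicates 1, 2 and 3 with IL-10- replicates 2 and 3, and slide 2 carried IL-10+ replicates 4 and 5, IL-10- replicate 5 and both total B arrays. Because the labels do not tie replicates to separate animals, the p-values reflect only the variation among these arrays, part of which may be technical. In such bulk RNA, fewer cells of a type and less RNA per cell cannot be told apart. Each array detected 13910 to 15610 of the 45281 probes. The median relative SE between the beads of a tested member ran from 2.42% for Gapdh to 6.30% for Tkt. It is relative to the raw intensity with background included, so it understates the error of a dim probe's signal above background.

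Glycolysis splits glucose into pyruvate in the cytosol. Pyruvate is then reduced to lactate by lactate dehydrogenase or enters mitochondria. There it is used by the pyruvate dehydrogenase complex, which pyruvate dehydrogenase kinases switch off. The pentose phosphate pathway branches off at glucose phosphate and supplies NADPH and ribose, and many of these genes are induced by the transcription factor HIF-1, which accumulates when oxygen falls or when immune cells are activated. B cells are known to take up more glucose after activation, and a Toll-like receptor ligand such as LPS is among the signals that do this.

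Between the sorted fractions, 3 members at separate steps were higher in IL-10+ cells: Pfkp, the platelet-type phosphofructokinase, by 3.43-fold, Pdk3, a pyruvate dehydrogenase kinase, by 1.57-fold, and Gpi1, the glucose phosphate isomerase, by 1.29-fold. These were 3 of 26 tested members, or 11.5%, where 9.12% of all genes were higher and 9.01% lower, and 0 members were lower by limma's test with Benjamini-Hochberg adjustment over all genes. At an unadjusted p under 0.05 there were 7 members, of which Eno3 was the lower. Here and below, the share of all genes at this looser threshold is not given. Such counts therefore cannot be set against a background. The median change of the members was 0.14 on the log2 scale, against -0.03 over all genes, with 18 members on the positive side. The count of members is near the background, so it says nothing particular about the pathway as a set.

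Against total B cells the differences lay partly at other steps. In IL-10+ cells 6 of 26 members were higher than in total B cells (Hk1, Gpi1, Gapdh, Pdk1, Pdk3 and G6pdx), where 12% of all genes were, and 1 was lower (Eno2), where 10.4% were. In IL-10- cells 1 was higher (Aldoa), with 7.51% of all genes, and 2 were lower (Pfkp and Eno2), with 6.04%. The members' median change was 0.27 log2 in the first and 0.16 in the second comparison, against -0.01 and 0.01 over all genes. These comparisons use the same total B arrays, and 9 members passed in at least 1 of the 3 comparisons. Total B cells were not split by IL-10, and for some genes, such as Eno2, both fractions lay on the same side of them. Whether anything besides IL-10 secretion sets total B cells apart was not tested.

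**Figure D1:**
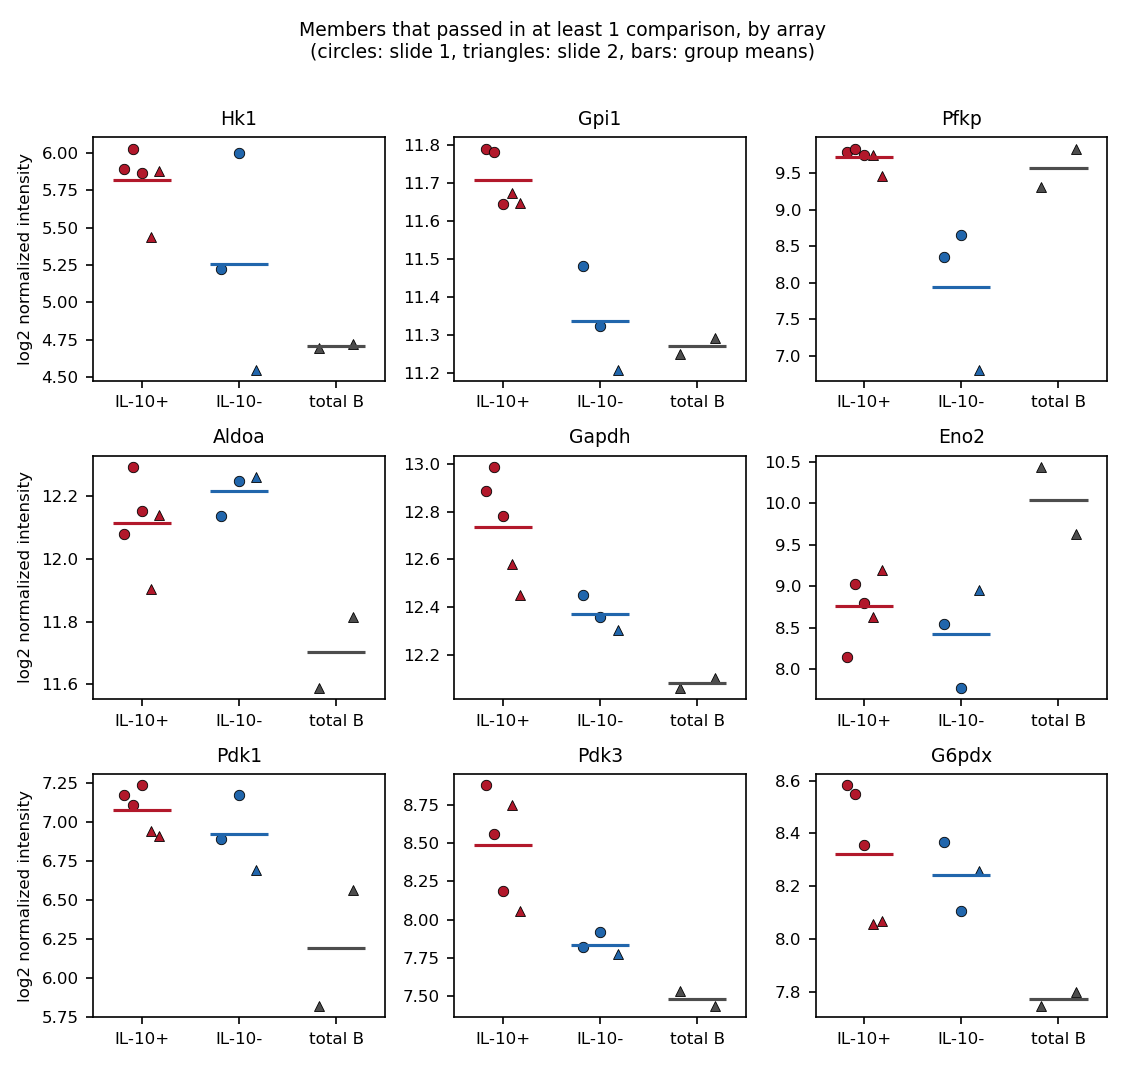
Log2 normalized intensity of the 9 members that passed in at least 1 comparison, 1 point per array, with circles for slide 1, triangles for slide 2 and bars at the group means. Pfkp was at 9.46 or above on every IL-10+ array and at 8.65 or below on every IL-10- array, while Gapdh and Pdk3 were lowest on the total B arrays.

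**Figure D2:**
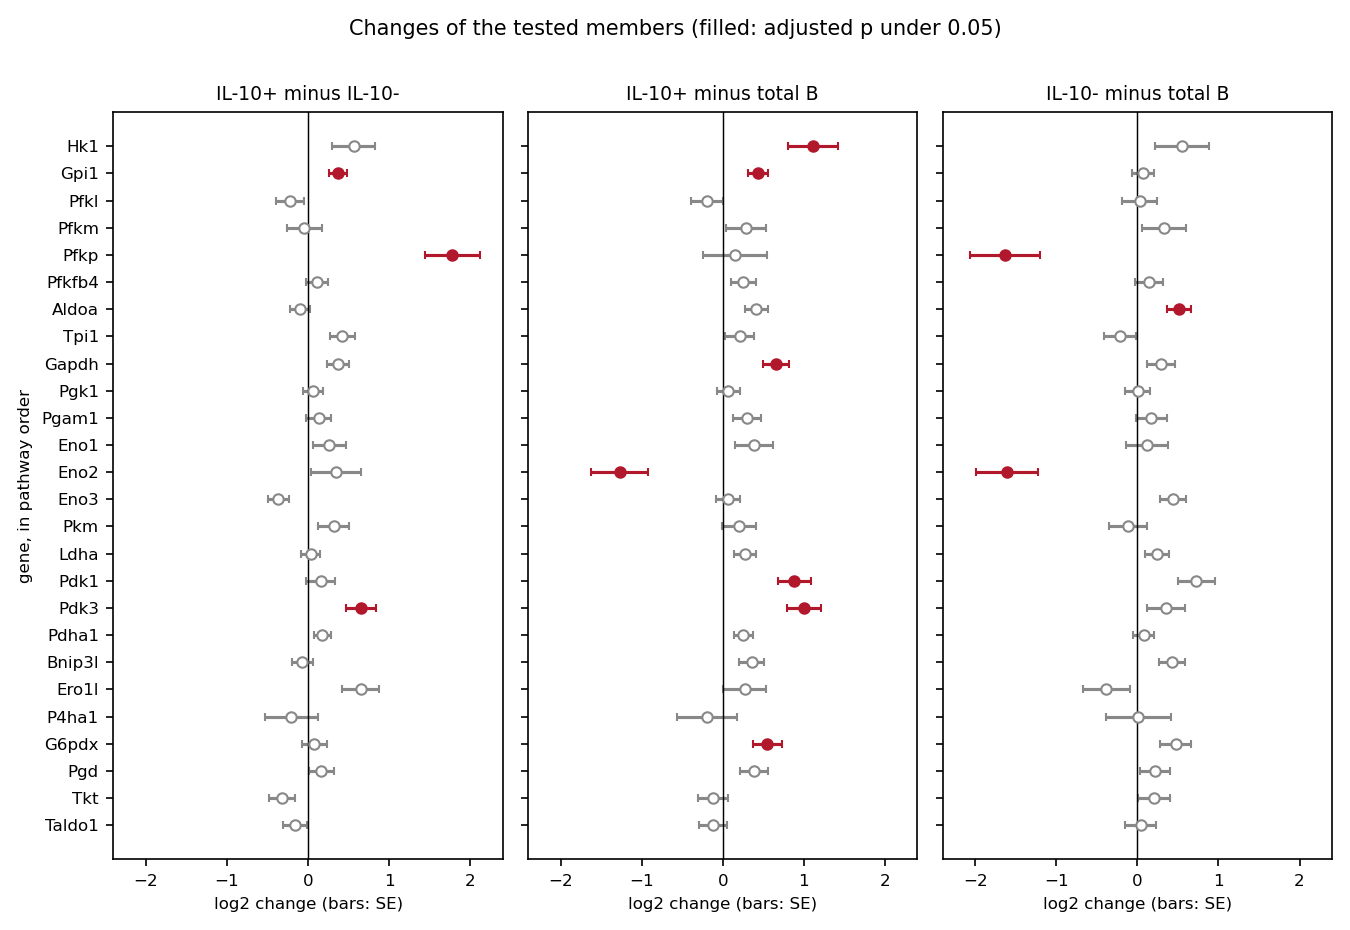
Log2 change of each of the 26 tested members in the 3 comparisons, in pathway order, with bars of 1 SE and filled points for an adjusted p under 0.05. Most points lie within 0.5 of 0, with Pfkp far from 0 in both comparisons that involve IL-10- cells and Eno2 in both that involve total B cells.

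The promoters of the 3 genes that were higher in IL-10+ than in IL-10- cells are shown with that of Ldha, a textbook HIF-1 target whose change between the fractions was 0.03 log2. They are RefSeq sequences of GRCm38.p6 for the 250 bases before the annotated start, read on the strand of the gene. Capitals mark the letters ACGTG on either strand, a form of the core of a hypoxia response element. They include places where these letters form the E-box CACGTG that Myc and other factors bind. The other form of the core, GCGTG, was not marked or counted, and it occurs in the Pfkp and Pdk3 windows shown. These 4 were chosen after their values were seen.
Pfkp, chr13:6648772-6649021, minus strand: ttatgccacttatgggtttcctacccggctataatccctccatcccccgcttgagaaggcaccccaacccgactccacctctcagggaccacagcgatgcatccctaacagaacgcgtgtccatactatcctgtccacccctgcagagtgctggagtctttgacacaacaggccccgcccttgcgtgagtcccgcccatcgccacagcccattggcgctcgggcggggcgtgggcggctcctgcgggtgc
Gpi1, chr7:34230337-34230586, minus strand: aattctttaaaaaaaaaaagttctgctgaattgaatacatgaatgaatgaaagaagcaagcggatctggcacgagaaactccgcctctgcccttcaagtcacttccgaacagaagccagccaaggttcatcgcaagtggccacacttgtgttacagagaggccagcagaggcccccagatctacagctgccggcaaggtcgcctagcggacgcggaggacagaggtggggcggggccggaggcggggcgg
Pdk3, chrX:93832151-93832400, minus strand: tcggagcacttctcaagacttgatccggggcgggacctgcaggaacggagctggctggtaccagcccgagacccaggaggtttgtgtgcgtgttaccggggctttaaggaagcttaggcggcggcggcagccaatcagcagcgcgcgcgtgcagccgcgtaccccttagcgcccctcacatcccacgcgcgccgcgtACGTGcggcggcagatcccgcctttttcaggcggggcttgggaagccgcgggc
Ldha, chr7:46845554-46845803, plus strand: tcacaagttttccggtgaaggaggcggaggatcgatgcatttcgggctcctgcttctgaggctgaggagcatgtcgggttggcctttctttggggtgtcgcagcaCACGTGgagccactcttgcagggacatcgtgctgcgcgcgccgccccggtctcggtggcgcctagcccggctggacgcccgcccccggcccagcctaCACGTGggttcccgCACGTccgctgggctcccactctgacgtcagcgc
For ACGTG alone, the windows of Pfkp and Gpi1 held 0 matches and that of Pdk3 held 1. The Ldha window shown held 5 strand-wise matches, of which its 2 palindromic E-boxes count on both strands. It is 1 of 2 Ldha windows, and the other held 0 matches. Windows were found for 33 of the 34 members, some with several starts. The letters ACGTG were present in 18 of 47 member windows, or 38.3%, against 16.6% of 32851 windows of the same length over all genes. The members include genes listed because low oxygen is known to induce them. Those of them with a window (Egln1, Egln3, Bnip3, Ero1l and P4ha1) all held ACGTG, so the shares are not an independent comparison. Windows of members whose expression was not tested, such as Hk2, Hk3 and Pfkfb3, are counted too. The E-box was present in 8.51% of member windows and 6.02% of all windows. A match is a run of letters and not a measured binding site.

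Hexokinases trap glucose in the cell by phosphorylation. Hk1 was at 5.89, 6.03, 5.87, 5.44 and 5.88 on the log2 scale in IL-10+ replicates 1 to 5, at 5.23, 6.00 and 4.55 in IL-10- replicates 2, 3 and 5, and at 4.70 and 4.72 in total B replicates 1 and 2. Array values below follow this order, and unnamed values in parentheses after a change or an omission are limma adjusted p-values. The Hk1 probe was dim, detected on 4 of 5 IL-10+ arrays, 1 of 3 IL-10- arrays and 0 of 2 total B arrays, and all IL-10+ arrays lay above both total B arrays. Because total B cells gave only a bound, Hk1 was at least 1.18-fold higher in IL-10+ than in total B cells. The limma adjusted p of 0.0261 is that of the fitted change of 1.11 log2, which uses the total B values below detection. The bound itself was not tested. The bound sets the IL-10+ mean against the lowest signal among detected probes on each total B array. Without total B replicate 1 or 2 the adjusted p was 0.141 or 0.119. With slide as a block it was 0.0749, and within slide 2 it was 0.0248. Hk3, expressed mainly in myeloid cells, was not past the detection filter.

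The upper glycolytic enzymes rearrange and split the sugar. Gpi1 was at 11.79, 11.78, 11.64, 11.68 and 11.65 in IL-10+ cells, at 11.48, 11.32 and 11.21 in IL-10- cells, and at 11.25 and 11.29 in total B cells. All IL-10+ arrays lay above all others, and the IL-10- and total B arrays overlapped. The change was 0.37 ± 0.11 log2 (SE) between the fractions, with an adjusted p of 0.0395, and 0.44 against total B cells, with an adjusted p of 0.0296. In the fit blocked on replicate number its adjusted p was 0.125, it was lost without any 1 array other than IL-10- replicate 2, with adjusted p from 0.0523 to 0.103, and a second, dimmer Gpi1 probe had a change of -0.22 (adjusted p = 0.364). Within slides 1 and 2 the change was 0.34 and 0.45, with adjusted p of 0.223 and 0.226. Against total B cells the call was lost without IL-10+ replicate 1 (adjusted p = 0.0566) or 2 (0.0544) and without total B replicate 1 (0.159) or 2 (0.112), and within slide 2, at 0.39 (0.138).

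Phosphofructokinase commits the sugar to glycolysis, and its subunits come from the liver-type gene Pfkl, the muscle-type gene Pfkm and the platelet-type gene Pfkp. Pfkp was at 9.79, 9.84, 9.75, 9.75 and 9.46 in IL-10+ cells, at 8.35, 8.65 and 6.81 in IL-10- cells, and at 9.31 and 9.83 in total B cells. IL-10+ and total B arrays overlapped, and all 3 IL-10- arrays lay below both, with replicate 5 far lowest. Pfkp was higher in IL-10+ than in IL-10- cells by 1.78 ± 0.34 log2 (SE, n = 5 and 3; limma adjusted p = 0.00628), and lower in IL-10- than in total B cells by 3.10-fold, a change of -1.63 ± 0.43 (adjusted p = 0.0320). Between IL-10+ and total B cells the change was 0.15.

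The Pfkp difference between the fractions passed under all 22 alternatives and on both slides, at 1.29 on slide 1 and 2.79 on slide 2, where the lone IL-10- array is assumed to vary like the others. Leaving out each array in turn gave 1.22 to 2.14. A second Pfkp probe, 2900482, was dimmer, with group means of 7.21, 5.39 and 6.79 in IL-10+, IL-10- and total B cells, and was detected on 1 of 3 IL-10- arrays. It changed by 1.82 between the fractions (adjusted p = 0.00128) and by -1.40 between IL-10- and total B cells (adjusted p = 0.0176). The lower level in IL-10- than in total B cells was -2.76 within slide 2 (adjusted p = 0.00773). It missed the threshold without total B replicate 1 (-1.89, adjusted p = 0.0960) or 2 (-1.37, adjusted p = 0.180), and was -1.07 (adjusted p = 0.0134) without IL-10- replicate 5.

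The other phosphofructokinase genes passed in no comparison. Pfkl, at 9.93 to 10.70 over all arrays, had a change of -0.22 between the fractions (adjusted p = 0.393). Pfkm, a dim probe at 5.13 to 6.18, had a change of -0.05 (adjusted p = 0.900). Whether these changes differ from that of Pfkp was not tested. Pfkfb4, a bifunctional enzyme that sets an activator of phosphofructokinase, was at 7.62 to 8.16 and passed in no comparison, and its relative Pfkfb3 was not past the filter.

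**Figure D3:**
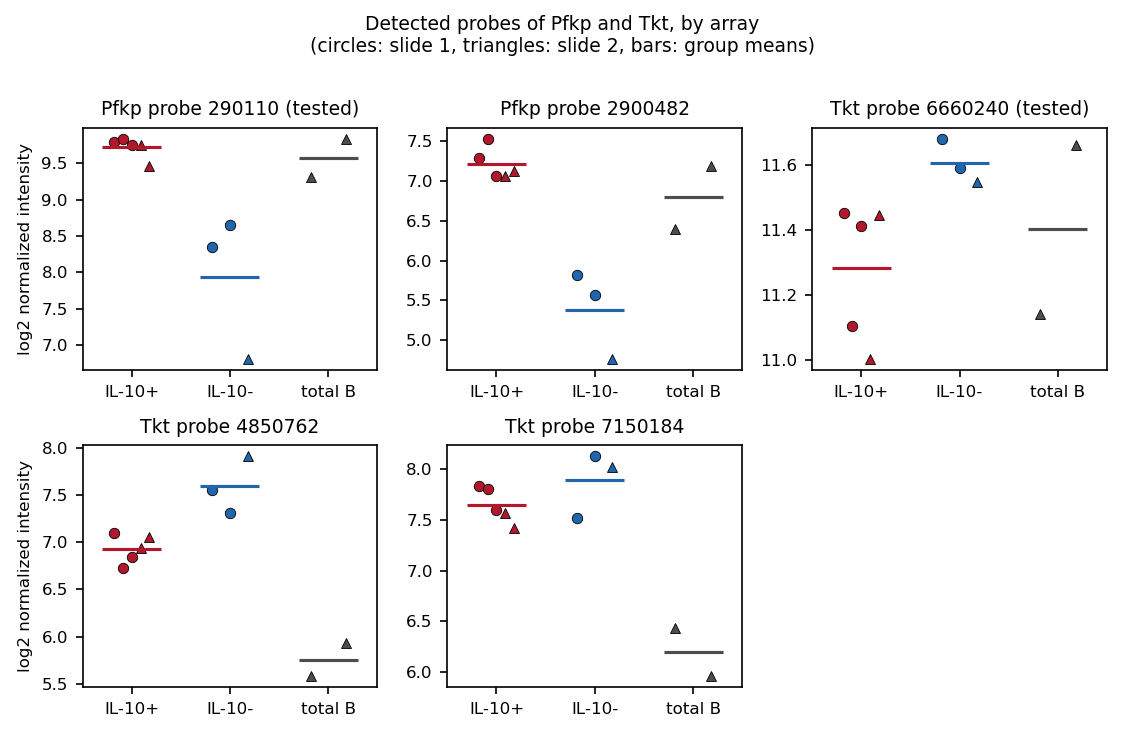
Log2 normalized intensity by array for the 2 detected probes of Pfkp and the 3 of Tkt, with circles for slide 1, triangles for slide 2 and bars at the group means. Both Pfkp probes are lowest in IL-10- cells, whereas the Tkt probes 4850762 and 7150184 are lowest in total B cells and the tested Tkt probe is not.

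Aldolase A, encoded by Aldoa, splits the sugar into trioses. Aldoa was at 12.08, 12.29, 12.15, 11.90 and 12.14 in IL-10+ cells, at 12.14, 12.25 and 12.26 in IL-10- cells, and at 11.59 and 11.82 in total B cells. Both sorted fractions lay above total B cells and overlapped each other. The change was 0.51 ± 0.15 in IL-10- against total B cells (adjusted p = 0.0475) and 0.41 in IL-10+ against total B cells, which did not pass. The first was lost without any 1 of the 10 arrays, with adjusted p from 0.0509 to 0.272, and within slide 2 (0.56, adjusted p = 0.157). Tpi1, the triose phosphate isomerase, was at 10.85 to 11.68, with a change of 0.42 between the fractions and an adjusted p of 0.0833. Aldoc was not past the filter.

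In lower glycolysis, Gapdh was higher in IL-10+ than in total B cells. Its product, glyceraldehyde phosphate dehydrogenase, is often used as a reference for other genes. Its probe was at 12.89, 12.99, 12.78, 12.58 and 12.45 in IL-10+ cells, at 12.45, 12.36 and 12.30 in IL-10- cells, and at 12.06 and 12.10 in total B cells. The 3 groups lay in that order, with IL-10+ replicate 5 at the level of IL-10- replicate 2, and both fractions lay above total B cells on every array. Gapdh was 1.57-fold higher in IL-10+ than in total B cells, a change of 0.65 ± 0.16 (adjusted p = 0.0145), whereas 0.29 in IL-10- cells did not pass. Within slide 2 the first change was 0.43 with an adjusted p of 0.116, with slide as a block 0.49 with 0.0380, and it also missed the threshold without total B replicate 1 (0.63, 0.104) or 2 (0.68, 0.0761).

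The enolases, which make phosphoenolpyruvate, differed in pattern. Eno2, the neuronal-type enolase, was at 8.15, 9.03, 8.80, 8.63 and 9.20 in IL-10+ cells, at 8.54, 7.77 and 8.95 in IL-10- cells, and at 10.44 and 9.63 in total B cells. Both fractions overlapped and lay below total B cells. Eno2 was 2.41-fold lower in IL-10+ than in total B cells (-1.27 ± 0.35, adjusted p = 0.0263) and 3.05-fold lower in IL-10- than in total B cells (-1.61 ± 0.38, adjusted p = 0.0226). Much of this rests on total B replicate 1, without which the changes were -0.87 (adjusted p = 0.257) and -1.21 (0.183). Leaving out IL-10+ replicate 4 gave the first an adjusted p of 0.0506, and leaving out IL-10- replicate 3 gave the second 0.0509. Within slide 2 the changes were -1.12 (0.0579) and -1.08 (0.127).

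Eno3, the muscle-type enolase, was at 6.28, 6.06, 6.23, 5.93 and 6.21 in IL-10+ cells, at 6.63, 6.33 and 6.56 in IL-10- cells, and at 5.98 and 6.16 in total B cells. All IL-10- arrays lay above all others, but the change of -0.37 between the fractions had an adjusted p of 0.0707. Eno1, the common enolase, was at 10.26 to 11.26 and passed in no comparison. Nor did the kinase Pgk1 at 11.73 to 12.13, the mutase Pgam1 at 9.81 to 10.48 or the pyruvate kinase Pkm at 11.19 to 11.98. A second, dimmer Pkm probe was at 5.26 on IL-10- replicate 5, and had a change of 1.12 between the fractions (adjusted p = 0.0786).

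Ldha, which makes lactate, was at 13.50, 13.49, 13.36, 13.34 and 13.15 in IL-10+ cells, at 13.22, 13.39 and 13.40 in IL-10- cells, and at 13.04 and 13.14 in total B cells. The fractions overlapped, with a change of 0.03 ± 0.12 (SE), and both lay just above total B cells, by 0.28 and 0.25, without passing.

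Of the kinases that switch off the pyruvate dehydrogenase complex, Pdk1 and Pdk3 were higher in IL-10+ than in total B cells. Their relatives Pdk2 and Pdk4, which are not members, were not among the genes tested. Pdk3 was at 8.88, 8.56, 8.19, 8.75 and 8.06 in IL-10+ cells, at 7.82, 7.92 and 7.77 in IL-10- cells, and at 7.53 and 7.43 in total B cells. The 3 groups did not overlap, in that order. Pdk3 was higher in IL-10+ cells by 0.65 ± 0.19 against IL-10- cells (adjusted p = 0.0358) and by 1.0 ± 0.21 against total B cells (adjusted p = 0.00787). Blocked on replicate number, the first change was 0.43 (adjusted p = 0.129). It was 0.67 within slide 1 (0.131) and 0.63 within slide 2 (0.280), and was lost without IL-10+ replicate 1, 2 or 4 or any IL-10- replicate, with adjusted p from 0.0630 to 0.0950. The second was 0.92 within slide 2 (0.0515) and missed the threshold without total B replicate 1 (0.0555) or 2 (0.0660).

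Pdk1, a kinase of the same family and a known HIF-1 target, was at 7.17, 7.11, 7.23, 6.94 and 6.91 in IL-10+ cells, at 6.89, 7.17 and 6.69 in IL-10- cells, and at 5.82 and 6.56 in total B cells. The fractions overlapped and lay above total B cells. The change was 0.88 ± 0.21 in IL-10+ against total B cells (adjusted p = 0.0123) and 0.73 in IL-10- against total B cells, which did not pass. Total B replicate 1 carries much of the first, which was 0.51 without it (adjusted p = 0.172) and 0.74 within slide 2 (0.101).

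Pdha1, the alpha subunit of the enzyme that these kinases inhibit, was at 10.92, 10.89, 10.71, 10.76 and 10.88 in IL-10+ cells, at 10.66, 10.65 and 10.66 in IL-10- cells, and at 10.58 and 10.57 in total B cells. The 3 groups did not overlap, yet the change of 0.18 between the fractions had an adjusted p of 0.262. In all, 6 of 26 members, or 23.1%, had IL-10+ and IL-10- arrays that did not overlap, where 24.5% of all genes did. Gpi1, Pfkp, Pdk3 and Pdha1 were on the higher side, and Eno3 and Tkt on the lower.

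Of the 6 hypoxia genes, which were listed because low oxygen is known to induce them, 3 could be tested and 0 passed in any comparison by limma. At an unadjusted p under 0.05, Ero1l differed between the fractions and Bnip3l in both comparisons with total B cells. Bnip3l, a receptor for the removal of mitochondria, was at 9.13 to 9.49 in the fractions and at 9.08 and 8.81 in total B cells, with changes of 0.36 and 0.43 (adjusted p = 0.113 and 0.108). Ero1l, an oxidase of the endoplasmic reticulum, was not well above background on the IL-10- arrays, and did not pass between the fractions (adjusted p = 0.0740), whose arrays overlapped, with IL-10+ replicates 1 and 2 at 5.48 and 5.59 and IL-10- replicate 3 at 5.67. P4ha1, a collagen prolyl hydroxylase, ranged from 4.86 to 6.62, both on IL-10- arrays, with a change of -0.21 between the fractions. Egln1 and Egln3, the oxygen-sensing hydroxylases, and Bnip3 were not past the filter. Together with Hk3, Pfkfb3 and Aldoc these 6 members have 12 probes, at raw intensities of 99.8 to 183.0, of which 1 of 120 values was detected.

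In the pentose phosphate pathway, G6pdx, the entry enzyme that makes NADPH, was at 8.58, 8.55, 8.36, 8.06 and 8.07 in IL-10+ cells, at 8.37, 8.11 and 8.26 in IL-10- cells, and at 7.75 and 7.80 in total B cells. The fractions overlapped and lay above total B cells. The change in IL-10+ against total B cells was 0.55 ± 0.18 (adjusted p = 0.0467). It was 0.29 within slide 2 (adjusted p = 0.254) and was lost without any of IL-10+ replicates 1, 2 and 3, IL-10- replicates 2 and 3 and both total B replicates, with adjusted p from 0.0505 to 0.210. Pgd, the next NADPH-making enzyme, at 11.12 to 11.94, and Taldo1, the transaldolase, at 10.47 to 11.00, passed in no comparison.

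Tkt, the transketolase of the non-oxidative branch, gave a different answer by probe. The brightest probe, which was tested, was at 11.45, 11.10, 11.41, 11.00 and 11.44 in IL-10+ cells, at 11.68, 11.59 and 11.55 in IL-10- cells, and at 11.14 and 11.66 in total B cells. It did not pass in any comparison, with -0.32 between the fractions (adjusted p = 0.187) and -0.12 and 0.20 against total B cells. Probe 4850762 was at 7.10, 6.72, 6.84, 6.94 and 7.06 in IL-10+ cells, at 7.56, 7.31 and 7.92 in IL-10- cells, and at 5.58 and 5.94 in total B cells.

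These 3 groups did not overlap at probe 4850762. Its change was 1.18 ± 0.19 in IL-10+ and 1.84 ± 0.21 in IL-10- against total B cells, with adjusted p of 0.00186 and 0.000961 over all detected probes. Between the fractions it was -0.66 (adjusted p = 0.0217), lost within slide 1 (-0.54, 0.139) and slide 2 (-0.92, 0.0735) and without IL-10- replicate 2 (0.0544) or 5 (0.0627). Probe 7150184 was higher in both fractions too, by 1.45 and 1.69 (adjusted p = 0.000911 and 0.00199). Both further probes passed against total B cells under all 20 alternatives run on them. The positions of the probes in the transcripts are not given, so which transcripts each reports was not tested. Over all members, 9 further probes of 7 genes were detected. Against the tested probe, 2 differed in sign between the fractions, 3 in IL-10+ and 2 in IL-10- against total B cells.

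**Figure D4:**
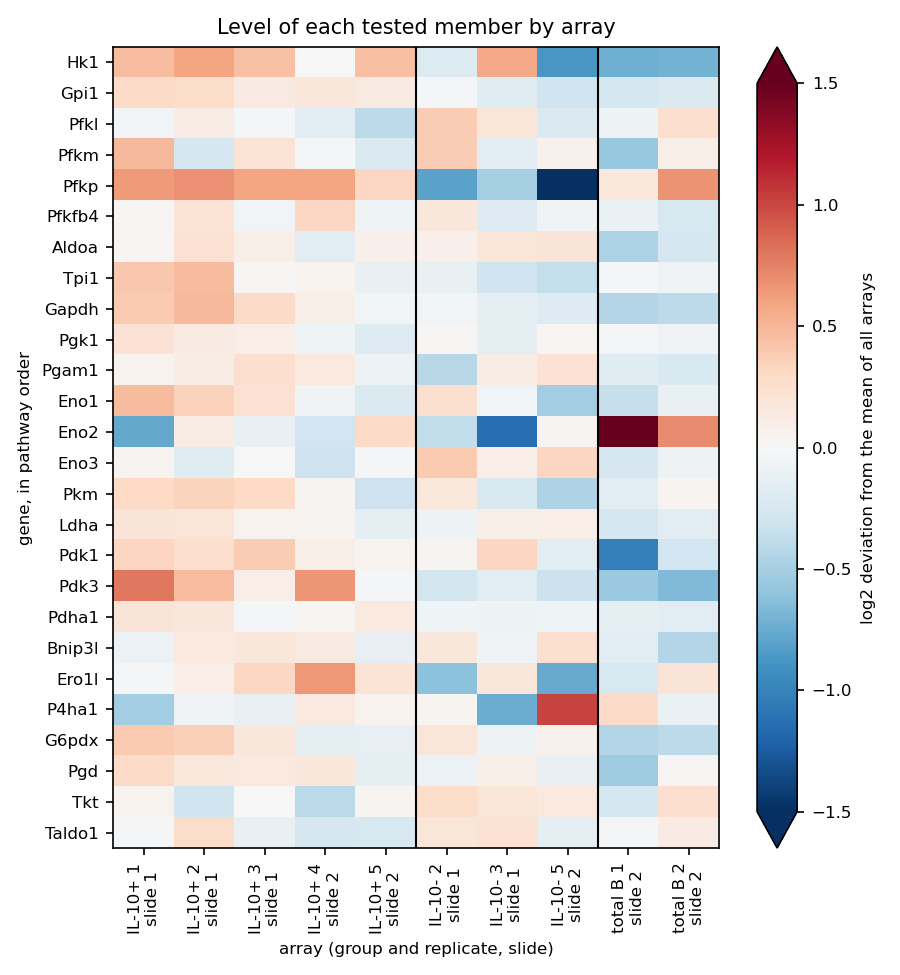
Deviation of each tested member on each array from its mean over all 10 arrays, on the log2 scale, with genes in pathway order and the colour scale ending at 1.5 in both directions. The Pfkp row is low on the IL-10- arrays, the Eno2 row is high on the total B arrays, and in 9 rows the slide 1 arrays of IL-10+ cells all lie above the slide 2 arrays.

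Slides differed within the IL-10+ group. Of the 26 members, 9 were higher on all 3 slide 1 arrays than on both slide 2 arrays, where 11.3% of all genes were, and 1, P4ha1, was lower, where 12.7% were. The 9 were Pfkl, Gapdh, Pgk1, Eno1, Pkm, Ldha, Pdk1, G6pdx and Taldo1, and they include 3 of the 6 members that were higher in IL-10+ than in total B cells. Since total B cells were on slide 2 alone, the values within slide 2 given above compare arrays of the same slide. There, 1 of 26 members, Hk1, passed between IL-10+ and total B cells and 1, Pfkp, between IL-10- and total B cells, where 18.7% and 10.9% of all genes passed within that slide.

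Genes around the members were counted from lists of the same pathways, named by adjusted p within each list. Slc2a1 and Pgm2 were higher in IL-10+ cells than in both other groups. Slc2a1, the glucose transporter GLUT1, was at 11.42, 11.77, 11.66, 11.42 and 11.74 in IL-10+ cells, at 11.25, 10.99 and 10.90 in IL-10- cells, and at 10.55 and 10.48 in total B cells. The 3 groups did not overlap. Slc2a1 was higher in IL-10+ cells by 0.56 ± 0.13 against IL-10- cells (adjusted p = 0.0171) and by 1.09 ± 0.15 against total B cells (adjusted p = 0.000890). The first was 0.50 within slide 1 (0.145) and 0.68 within slide 2 (0.135), and missed the threshold without IL-10- replicate 3 (0.53, 0.0537), and the second passed under all 21 alternatives.

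Txnip, which restrains glucose uptake and is induced by glucose itself, was at 10.11 to 10.86 in IL-10+ cells, at 10.36 to 11.20 in IL-10- cells and at 8.24 and 7.98 in total B cells. The fractions overlapped far above total B cells, by 5.33-fold and 5.87-fold (adjusted p = 0.000221 and 0.00103), under all 21 alternatives. Of 13 transport genes 5 were tested. Between the fractions 1 was higher, where 9.12% of all genes were. Against total B cells 2 were higher in the IL-10+ fraction (12% of all genes) and 1 in the IL-10- fraction (7.51%). By limma 0 were lower in any comparison. In these 3 comparisons 1, 3 and 5 of the 5 had a positive change, with medians of -0.29, 0.15 and 0.47 log2.

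Pgm2, a phosphoglucomutase, was at 9.20 to 10.12 in IL-10+ cells, 8.32 to 8.98 in IL-10- cells and 8.19 and 7.93 in total B cells. It was 1.96-fold higher in IL-10+ than in IL-10- cells (adjusted p = 0.0107) and 2.98-fold higher than in total B cells (0.00138), the first at 0.97 within slide 1 (0.0462) and 1.05 within slide 2 (0.0626). Adpgk, an ADP-dependent glucokinase, was lower in IL-10+ than in IL-10- cells by -0.58 (0.0133) and higher in IL-10- than in total B cells by 0.73 (0.0176). Both Adpgk calls rest on the brightest probe, since the mean of its probes gave -0.29 (0.278) and 0.06 (0.884). Blocked on replicate number, the first was at 0.0643, and the second was at 0.130 without total B replicate 1 and 0.0595 without 2. Of 26 other genes of sugar metabolism 7 were tested, and these were the only 2 that passed.

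Rpe, the epimerase of the non-oxidative pentose phosphate branch, was lower in IL-10+ cells. It was at 6.30, 6.75, 6.75, 6.43 and 6.17 in IL-10+ cells, at 8.81, 8.12 and 7.82 in IL-10- cells, and at 7.23 and 7.57 in total B cells. The 3 groups did not overlap, with total B cells in between. Rpe was 3.42-fold lower in IL-10+ than in IL-10- cells (-1.77 ± 0.23, adjusted p = 0.000792), with -1.87 on slide 1 and -1.53 on slide 2, and passed under all 22 alternatives.

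Against total B cells Rpe was lower by -0.92 (0.0291), a call lost without IL-10+ replicate 1 (0.0562), 4 (0.0540) or 5 (0.0554) and without total B replicate 1 (0.0859) or 2 (0.199). Prps2, which makes the ribose donor for nucleotides, was 1.67-fold higher in IL-10+ than in total B cells (0.0167), and Rbks, the ribokinase, 1.88-fold lower (0.0136). Without total B replicate 1 Prps2 was at 0.64 log2 (0.144) and Rbks at -0.71 (0.153), and without 2 Prps2 was at 0.84 (0.0611). Of 10 other pentose phosphate genes 8 were tested, and 0 passed in IL-10- against total B cells, where 2 had an unadjusted p under 0.05, Rpe with 0.86 (adjusted p = 0.0722) and Rbks with -0.62 (0.109).

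Of 14 other genes of pyruvate entry and use, 8 were tested. Mpc2, a subunit of the mitochondrial pyruvate carrier, was higher in IL-10+ than in total B cells by 0.60 (0.0429). This was lost without IL-10+ replicate 1, 2, 4 or 5 or a total B replicate, with adjusted p from 0.0700 to 0.277, and within slide 2 it was 0.70 (0.0426). Between the fractions 0 passed by limma and 1 had an unadjusted p under 0.05, the phosphatase Pdp1, which reactivates the dehydrogenase, at -0.58 (0.0508), and Mpc2 at 0.33 (0.193). In IL-10- against total B cells 0 passed and 1, Pdp2, had such a p, with Pdp2 at -0.56 (0.164) and Pdp1 at 0.48 (0.193).

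**Figure D5:**
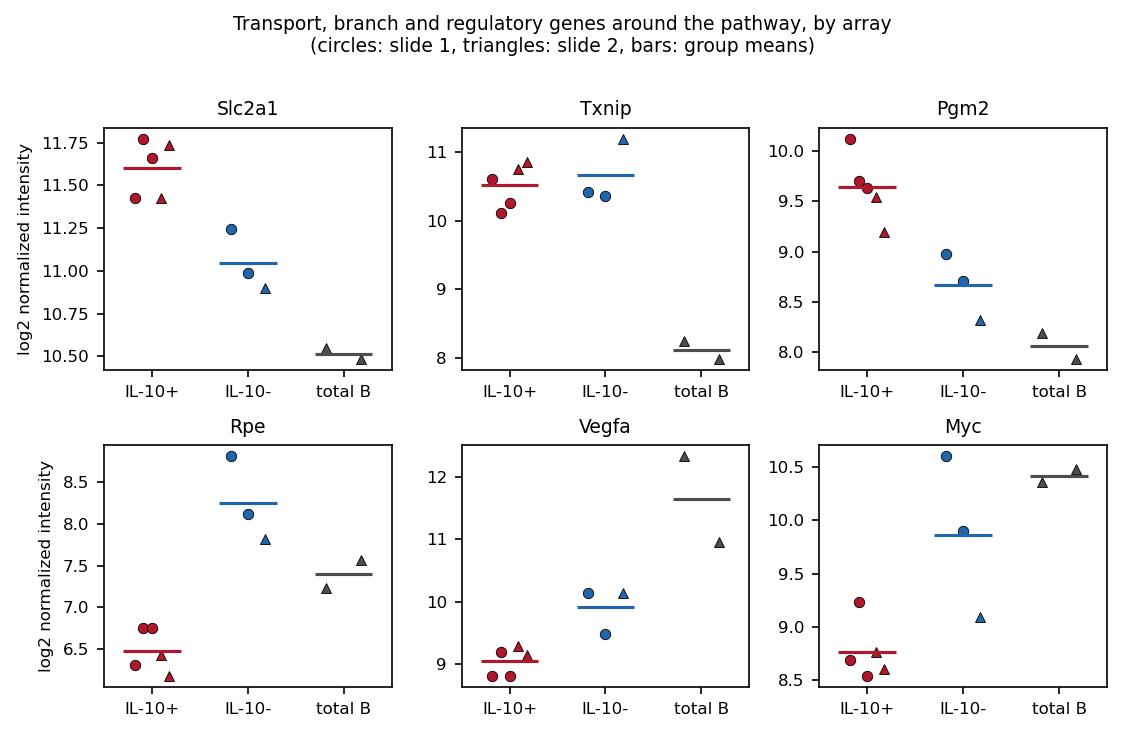
Log2 normalized intensity by array for 6 genes around the pathway, with circles for slide 1, triangles for slide 2 and bars at the group means. Slc2a1 and Pgm2 are highest on the IL-10+ and lowest on the total B arrays, Txnip is high in both fractions, Rpe is lowest in IL-10+ cells, and Vegfa is highest in total B cells.

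Of 30 other hypoxia genes 21 were tested, and 18, 18 and 19 of them did not pass in the 3 comparisons. Between the fractions 1 was higher and 2 were lower, where 9.12% and 9.01% of all genes were. In IL-10+ against total B cells 2 were higher and 1 lower (12% and 10.4% of all genes), and in IL-10- against total B cells 1 and 1 (7.51% and 6.04%). Their median changes were -0.11, -0.09 and -0.0038 log2. Vegfa, the endothelial growth factor that HIF-1 induces, was at 8.81 to 9.30 in IL-10+ cells, 9.48 to 10.14 in IL-10- cells and 12.33 and 10.95 in total B cells. The 3 groups did not overlap. It was 5.99-fold lower in IL-10+ (adjusted p = 0.000502) and 3.29-fold lower in IL-10- than in total B cells (0.0138). The first passed in every alternative, from -3.27 to -1.89 log2 with an array left out, and the second was -1.03 without total B replicate 1 (0.0988) and had an adjusted p of 0.113 within slide 2.

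Cited2, a cofactor that restrains HIF-1, was 1.78-fold higher in IL-10+ (0.00187) and 1.48-fold higher in IL-10- than in total B cells (0.0318), the latter lost without IL-10- replicate 3 (0.0643) or 5 (0.0581) or total B replicate 1 (0.38, 0.240) and within slide 2 (0.64, 0.123). Ankrd37 was higher in IL-10+ than in total B cells by 1.25 (0.0385). It was detected on 1 of 2 total B arrays and was lost without any IL-10+ replicate, IL-10- replicate 3 or a total B replicate, with adjusted p from 0.0506 to 0.172. Between the fractions, the carbonic anhydrase Car12 was not well above background on the IL-10- arrays and at least 1.56-fold higher in IL-10+ cells. Its fitted change of 1.07 log2 passed (0.0223), and the bound itself was not tested. The call was lost under 4 of 22 alternatives. Among them were leaving out IL-10- replicate 2 (0.0868), the block on replicate number (0.0933) and the fit within slide 2, which has only 1 IL-10- array.

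Bhlhe40, a repressor induced by hypoxia and by activation, was 1.68-fold lower in IL-10+ than in IL-10- cells (0.0252), and Wsb1, part of a ubiquitin ligase, 1.37-fold lower (0.0355). The Bhlhe40 call was lost without IL-10+ replicate 1, 4 or 5 or IL-10- replicate 2 or 3, with adjusted p from 0.0522 to 0.0884. That of Wsb1 was lost without any 1 sorted array other than IL-10+ replicate 3, with adjusted p from 0.0548 to 0.0881, and was 0.0941 when blocked on replicate number. Within slides 1 and 2 neither passed, at -0.70 and -0.78 for Bhlhe40 and -0.45 and -0.46 for Wsb1.

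Of 12 listed regulators of the pathway 7 were tested, and 3 were lower and 0 higher in IL-10+ than in IL-10- cells by limma, or 4 and 0 at an unadjusted p under 0.05, where 9.01% of all genes were lower and 9.12% higher by limma. Their median change was -0.43 log2. Myc, a transcription factor that drives glycolytic genes, was at 8.69, 9.23, 8.54, 8.76 and 8.61 in IL-10+ cells, at 10.60, 9.90 and 9.09 in IL-10- cells, and at 10.36 and 10.48 in total B cells. IL-10+ replicate 2 lay above IL-10- replicate 5, so the fractions overlapped, and total B cells lay above all IL-10+ arrays. Myc was 2.14-fold lower in IL-10+ than in IL-10- cells (0.0243) and 3.15-fold lower than in total B cells (0.00558). The first was -1.43 within slide 1 (0.0427) and -0.40 within slide 2 (0.297). It missed the threshold without IL-10+ replicate 3, 4 or 5 (0.0502 to 0.0512) and without IL-10- replicate 2 (-0.73, 0.0815) or 3 (0.0641). The second had 0.0519 without total B replicate 2.

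Mlxip, a glucose-sensing transcription factor, was 1.64-fold lower in IL-10+ than in IL-10- cells (adjusted p = 0.00966; 0.0508 when blocked on replicate number) and Trp53, the tumour suppressor that limits glycolysis, 1.52-fold lower (0.0299). The Trp53 call was lost without IL-10+ replicate 3, 4 or 5 or IL-10- replicate 2 or 5, with adjusted p from 0.0512 to 0.107. Within slides 1 and 2 Mlxip had -0.62 (0.125) and -0.85 (0.0639), and Trp53 -0.50 (0.167) and -0.76 (0.164). In IL-10- against total B cells 0 regulators passed and 1, Rptor, had an unadjusted p under 0.05, at -0.46 (adjusted p = 0.0987), with Myc at -0.56 (0.335).

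The B cell label was checked against its markers, of which 5 of 6 were tested. Pax5, a defining factor of the lineage, was detected on 1 of 5 IL-10+, 1 of 3 IL-10- and 0 of 2 total B arrays. Cd79b, Ms4a1 and Cd22 were lower in IL-10+ than in IL-10- cells, and the summed linear level of the 5 markers was 3114 to 4723 in IL-10+, 5549 to 7253 in IL-10- and 4645 to 5735 in total B cells. Of macrophage markers 2 of 7 were tested, Emr1 and Mpeg1, with a sum of 2546 to 3869 in IL-10+, 827.2 to 1598 in IL-10- and 884.5 to 1267 in total B cells, and the defining Csf1r, Lyz2, Itgam, Cd14 and Fcgr1 were not past the filter. Mpeg1 was higher in IL-10+ than in IL-10- cells by 1.57 log2 (adjusted p = 0.00272), while Emr1 had a change of -0.06 (0.945). Cd3g alone of 6 T cell markers was tested, at 44.7 to 63.4, 21.6 to 29.7 and 23.4 to 33.8, and Cd3e and Cd3d were not past the filter. Cd3g was detected on 3 of 5 IL-10+, 0 of 3 IL-10- and 0 of 2 total B arrays. It passed as higher in IL-10+ than in IL-10- cells (0.00432). The erythroid Hbb-b1 alone of 7 was tested, at 157.6 to 296.4 in IL-10+, 404.1 to 786.1 in IL-10- and 927.1 to 1115 in total B cells. Hbb-b1 was lower in IL-10+ than in IL-10- cells (0.00768). Of dendritic markers 2 of 6 were tested, Zbtb46 and Siglech, with sums of 291.1 to 464.2, 576.5 to 592.6 and 548.7 to 753.2, and 0 of 6 neutrophil and 0 of 5 natural killer cell markers. Siglech was lower in IL-10+ than in IL-10- cells (0.00218), and Zbtb46 did not pass (0.972). The part of these markers in the members' differences was not tested.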

How the data were processed

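RNA of the 10 samples was amplified, biotin-labelled and hybridised to Illumina MouseWG-6 V2 beadchips. The deposited table holds the mean intensity of the beads of each probe on a linear scale, as GenomeStudio 1.9.0 wrote it without normalization, per the file headers. It also gives the intensity SD between beads and the count of beads, per the file headers. The deposited detection score rises with signal, and 1 minus it was used as the detection p. Another 40 columns that hold per-array values (lowest and highest signal, array number, array SD) were not used. A deposited table of the authors' processed log2 values for 9679 probes, for which the submitters' processing notes name lumi, uses other probe identifiers, which do not pair with the intensity table, and was not used. Whether background had been subtracted before export, and the genome build of the probes, are not given.

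Background correction and quantile normalization used the neqc function (limma 3.58.1, R 4.3.3, offset of 16), and levels are log2 values of the result. A probe was kept where its detection p was below 0.01 on 2 or more arrays (16496 of 45281, and 35 of the 55 member probes), and the probe with the highest mean stood for a gene. Groups were compared with lmFit and eBayes in 1 fit of the 10 arrays. Tests were two-sided and adjusted by Benjamini-Hochberg over 11185 genes and a threshold of 0.05. There were 7 residual degrees of freedom, 10.6 after moderation. Further probes were tested in the same way over all detected probes. An "at least" fold was given where a gene was undetected on every array of a group. The fit was tested on simulated data.

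Names in the file were matched to RefSeq symbols of assembly GRCm38.p6: 16223 equalled a symbol, 5706 were a synonym of a single gene, and 8925 were kept as written. Probes listed only as C230090D14 and D530020C15RIK, synonyms of Pfkfb4 and Pdk1, were left out by the rule for members.

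Members and lists were chosen with earlier results of these data known. Every member was accounted for. Those past the threshold or without overlap between the fractions were given array by array, and from each other list up to 4 passing genes were named per comparison by adjusted p, or the 2 smallest p where none passed. Ldha and the markers were added to these.

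Deviations from the group mean correlated across genes between IL-10+ and IL-10- arrays of the same number, at 0.348 for replicate 2, 0.238 for 3 and 0.319 for 5. The numbers, taken from the sample titles, were therefore used as pairs, but only in the alternative fit blocked on replicate number. The main fit did not pair arrays. These pairs also share a slide, and IL-10+ replicate 4 with IL-10- replicate 5, on slide 2 under different numbers, had 0.276. The pairs under different numbers on slide 1 were nearer 0. IL-10+ replicate 1 had -0.0233 with IL-10- replicate 2 and 0.0117 with 3. IL-10+ replicate 2 had 0.0062 with IL-10- replicate 3, and IL-10+ replicate 3 had 0.0644 with IL-10- replicate 2. The parts of number and slide in these values were not tested. Alternatives covered background correction, scaling, offset, filter, probe choice, slide, pairing, the arrays in the fit and leaving out each array.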

Additional observations from a re-analysis of the deposited data

Results flagged for a closer look

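For 3 of 43 genes examined, a single IL-10+ array stood apart from the other 4 by Dixon's test, which chance meets in about 1 in 20 groups. Hk1 was lowest on replicate 4, at 5.44 on the log2 scale, where the other arrays were at 5.87 to 6.03. Pfkp was lowest on replicate 5, at 9.46, where the others were at 9.75 to 9.84, and this array still lay above every IL-10- array. Mpc2 was lowest on replicate 3, at 6.12, where the others were at 6.5 to 6.59.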

How the results depend on the processing

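Of the changes of single genes and probes named that passed the threshold, 0 turned direction under an alternative, and of 952 such values 758 stayed past it and 194 did not. Several alternatives leave the estimate of a change as it was, so they could not turn its direction. Among these are another filter, a fit of only the groups compared and leaving out an array of the third group. In such cases only the adjusted p can move. Changes that had not passed were not compared across alternatives. Of all genes, 18.1% passed between IL-10+ and IL-10- cells, 19.2% without background correction and 21.4% when blocked on slide. The share was 6.7% within slide 1, 11.9% with the replicate number as a block and 11.2% to 18.1% with an array left out. The count of members called was 3 in this comparison. It was 5 without background correction, 5 when blocked on slide, 1 within slide 1, 1 within slide 2, 1 with the replicate number as a block, and 1 to 3 with an array left out, with 1 without IL-10+ replicate 1, 2 or 4 or IL-10- replicate 5. Against total B cells, the count of 7 in IL-10+ cells was 3 when blocked on slide, 1 within slide 2 and 0 to 7 with an array left out, 0 without total B replicate 1 and 2 without total B replicate 2. Of all genes, 22.4% passed there, 21.7% when blocked on slide, 18.7% within slide 2, and 9.07% and 11.4% without total B replicate 1 or 2. The count of 3 in IL-10- cells was 1 with no detection filter, 1 when blocked on slide, 1 within slide 2, 0 in a fit of only these groups and 0 to 4 with an array left out, 0 without total B replicate 1 and 1 without IL-10- replicate 3. Of all genes, 13.6% passed in IL-10- against total B cells, 4.14% with no detection filter, 10.7% when blocked on slide and 3.84% in a fit of only these groups. With the replicate number as a block, which for total B cells has too few pairs to be checked, the member counts in IL-10+ and IL-10- cells were 6 and 0. There, 16.9% and 7.48% of all genes passed. Between the fractions the block ended the calls of Gpi1, Pdk3, Adpgk, Car12, Wsb1 and Mlxip and no other call of a named gene or probe. Where limma gave 0, members with an unadjusted p under 0.05 numbered 6 for IL-10+ cells without total B replicate 1, and in IL-10- cells 3 without it, 7 with the block and 5 in the fit of these groups. No share of all genes at that unadjusted threshold is given beside these counts. Within slides fewer arrays enter the fit, and otherwise the cause was not tested. Scaling arrays to a common median moved the median change of all genes from -0.03 to -0.13 between the fractions and from 0.01 to 0.11 in IL-10- against total B cells. All genes then split into 790 higher and 1240 lower (1020 and 1008 before) and 881 and 397 (840 and 676), while the members' medians were 0.12 and 0.24. The alternative with the authors' processed values was not run, because their probes could not be paired. Dim probes such as Hk1, Ero1l and P4ha1 are limited by signal over background.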
